A study of Mus musculus with 6 samples.

Results

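The genes described here are the metallothioneins Mt1, Mt2 and Mt3, the metal-responsive transcription factor gene Mtf1, and the zinc transporter genes Slc30a1, Slc39a8, Slc39a10 and Slc39a14. They were taken by symbol, and all 8 were found among 24147 in each count table. RNA came from the lens capsule with its attached lens epithelial cells, from wild type C57BL/6 mice of 2 months. In every animal the fiber cells had been taken out of the lens, a mouse model of cataract surgery, and tissue was frozen either directly afterwards (0 h, 3 libraries) or 24 h afterwards (3 libraries). Both groups had been operated on, so the comparison is between times after surgery and has no unoperated lens. The libraries are biological triplicates by the series' own account, and the labels used here do not say how many eyes or animals each one pools. In such bulk tissue, more cells of a type and more RNA per cell cannot be told apart.

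Metallothioneins are small proteins rich in cysteine that bind zinc and copper ions in the cytosol and also react with oxidants. Their genes are switched on by the zinc-sensing factor MTF1, which binds short metal response elements (MREs) in their promoters, and Mt1 and Mt2 also respond to glucocorticoids, to cytokines of the IL-6 family and to oxidants. Zinc leaves the cytosol through ZnT proteins, encoded by Slc30a genes, and enters it through ZIP proteins, encoded by Slc39a genes. In the lens, as in other tissues, free zinc is kept low by the balance of these proteins.

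Mt1, Mt2 and Slc30a1 are textbook MTF1 targets, while Mt3 is known for little response to metals. The promoters of these 4 genes are shown for that contrast. Each sequence runs from 250 bases before the deposited start to 30 bases after it (RefSeq, GRCm38.p6, the same assembly as mm10), all on the plus strand. Mt1 is at chr8:94178839-94179118, Mt2 at chr8:94172368-94172647, Mt3 at chr8:94152357-94152636 and Slc30a1 at chr1:191906531-191906810. Capitals mark the MRE core, searched as TGCACNC and TGCGCNC on both strands, where no 2 matches overlapped.
Mt1: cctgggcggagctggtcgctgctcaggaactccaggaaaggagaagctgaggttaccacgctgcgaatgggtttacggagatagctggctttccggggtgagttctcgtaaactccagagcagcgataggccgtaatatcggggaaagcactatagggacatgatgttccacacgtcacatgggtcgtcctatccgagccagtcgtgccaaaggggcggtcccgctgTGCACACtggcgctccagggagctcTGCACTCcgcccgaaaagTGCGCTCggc
Mt2: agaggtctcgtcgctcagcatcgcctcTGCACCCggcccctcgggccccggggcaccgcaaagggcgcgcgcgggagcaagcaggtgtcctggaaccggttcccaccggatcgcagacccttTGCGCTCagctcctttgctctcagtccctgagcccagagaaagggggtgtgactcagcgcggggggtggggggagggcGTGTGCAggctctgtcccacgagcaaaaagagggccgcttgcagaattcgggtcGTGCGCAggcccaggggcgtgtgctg
Mt3: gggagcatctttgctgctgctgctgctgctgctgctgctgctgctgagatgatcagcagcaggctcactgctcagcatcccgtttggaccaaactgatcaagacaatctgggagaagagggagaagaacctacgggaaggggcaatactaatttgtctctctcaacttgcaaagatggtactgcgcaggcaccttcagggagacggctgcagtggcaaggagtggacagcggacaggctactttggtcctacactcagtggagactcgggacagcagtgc
Slc30a1: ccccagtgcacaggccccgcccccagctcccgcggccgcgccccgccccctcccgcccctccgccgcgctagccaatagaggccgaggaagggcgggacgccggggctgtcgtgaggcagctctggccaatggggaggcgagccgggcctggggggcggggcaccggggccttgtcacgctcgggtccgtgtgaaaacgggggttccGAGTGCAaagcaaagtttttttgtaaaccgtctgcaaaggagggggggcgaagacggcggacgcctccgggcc

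The Mt2 window held 4 MRE cores and the Mt1 window 3, the Slc30a1 window held 1, and the windows of Mt3 and Mtf1 held 0. Slc39a8 and Slc39a10 each have 2 windows in the table, with 1 core in the Slc39a8 window that starts downstream of the deposited start and 0 in the other 3. Slc39a14 has no window there, so its promoter was not searched for this or the other patterns below. Among 32817 RefSeq promoter windows of the same 280 bases, 24.1% held at least 1 core, 1.73% held at least 3 and 0.405% held at least 4. In Mt1 the cores began at positions -23, 3 and 21 from the deposited start, and in Mt2 at -223, -128, -50 and 5. GENCODE M21 places starts of Mt1 transcripts from 94179082 to 94179241, so the cores after the deposited start lie before the later of these. The Mt1 window ends at 94179118, so the bases just before the start at 94179241 were not searched. GENCODE places starts of Mt2 transcripts from 94172664 to 94172860, all after the end of the Mt2 window at 94172647. The core counts of Mt1 and Mt2 therefore do not cover their whole promoters. By that annotation every Mt2 core lies before these starts, and the window stops short of them. The core of an antioxidant response element, searched as TGACNNNGC on both strands, was found in the Mt2 and Slc30a1 windows and in 1 Slc39a8 window, against 11.5% of all windows, and the Mt2 match TGACTCAGC spanned positions -79 to -71. The STAT site TTCNNNGAA, which reads the same on both strands, matched in 1 of the 9 windows of these genes, an upstream Slc39a10 window, and in 7.83% of all windows. A match is a stretch of letters and not a measured binding site, and no match says only that these letters are not in the window.

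The libraries held 8069314 to 10862573 counts on 16248 to 16962 detected genes. At these depths 3 counts in a library correspond to 0.300 to 0.383 CPM (counts scaled for library depth) after correction by the trimmed mean of M-values (TMM), the scale of all CPM values here. Of 13956 genes that passed a filter on low counts, 28.2% changed at an adjusted p under 0.05, 15.2% being higher and 13.0% lower at 24 h. The 6 listed lens epithelial markers were detected in all 6 libraries, with Cryab at 10304 CPM or more and Pax6 at 248 CPM or more, but 4 of the 6 were lower at 24 h (Cryab 2.19-fold, Foxe3 2.94-fold, Pitx3 and Prox1). The 5 lens fiber markers also fell. Of 3 endothelial markers Cdh5 and Pecam1 rose, from only 3 to 11 and 3 to 21 counts per 0 h library. Kdr, the most abundant of the 3 at 0 h, averaged 24.8 CPM there against 11.8 CPM at 24 h. Its libraries overlapped between the times, with no call (adjusted p = 0.145). The sum of the 3 ranged from 10.8 to 35.3 CPM at 0 h, against 18.8 to 39.2 CPM at 24 h. The corneal markers Krt5 and Krt12 were called higher with overlapping libraries, being low in 24 h replicate 2. The part of such shifts between cell types in the changes below was not tested. The 6 photoreceptor markers summed to 1886 to 5749 CPM at 0 h and 1012 to 4558 CPM at 24 h, with replicate 2 highest at both times.

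Of the 8 genes, 8 passed the low-count filter, 5 rose (15.2% of all genes did), 0 fell and 3 were not called. Mt3 and Slc39a8 passed the filter only through their 24 h libraries. The 5 were Mt1, Mt2, Mt3, Slc39a10 and Slc39a14. Their 24 h libraries all lay above their 0 h libraries, as did those of Slc39a8 (22.9% of all genes did so), and 0 of the 8 lay wholly below (21.8% of all genes). Across the 8 genes the median log2 fold change came to 1.64, beside -0.03 over all genes tested. The genes had been proposed with earlier results of these data known, so these counts describe them and test nothing about the group.

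**Figure D1:**
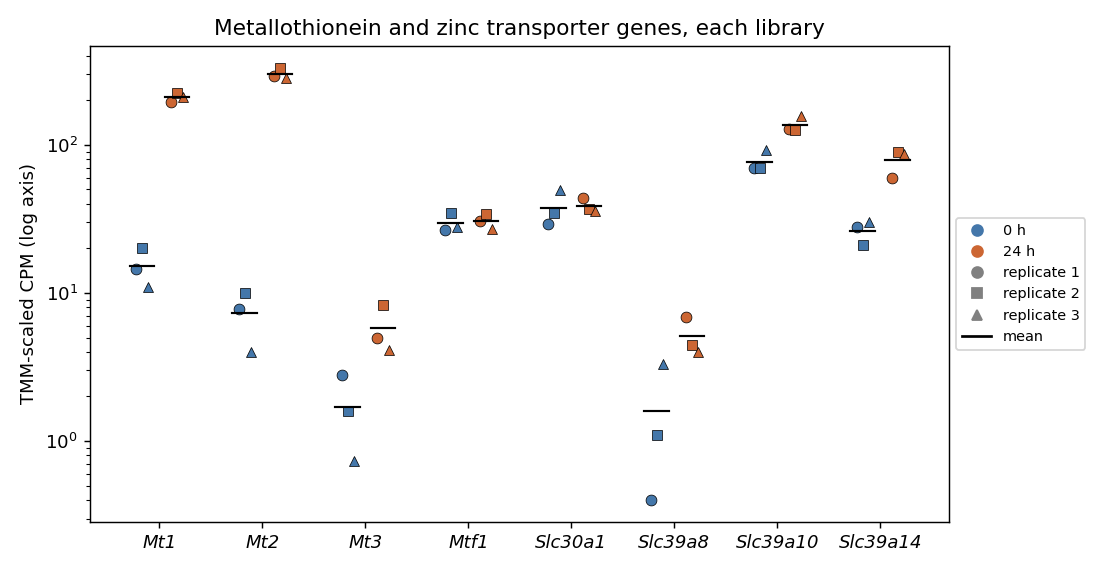
TMM-scaled CPM on a log axis for each of the 8 genes, with 1 point per library (blue 0 h, orange 24 h, marker shape for the replicate) and a bar at the mean of 3 libraries. Mt1 and Mt2 stood at 4.02 to 20.2 CPM at 0 h and 195 to 332 CPM at 24 h, while the points of Mtf1 and Slc30a1 overlapped between the times.

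Mt2 showed the steepest rise of the 8. Its level was 7.80, 10.01 and 4.02 CPM in 0 h replicates 1 to 3 and 292, 332 and 281 CPM in 24 h replicates 1 to 3, from 33 to 100 counts before and 2287 to 3129 counts after. The groups were far apart, and the lowest 24 h library held many times the highest 0 h library. The mean went from 7.28 ± 3.03 to 302 ± 26.6 CPM (SD, n = 3 each), a 41.0-fold rise with a 95% interval of 25.3 to 66.7 (adjusted p = 2.51e-05). Mt2 encodes 1 of the 2 metallothioneins made in most tissues (chromosome 8, 94172618 to 94173567, 3 exons).

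Mt1, its neighbour on the same strand (chromosome 8, 94179089 to 94180327, 3 exons), encodes the other. It stood at 14.4, 20.2 and 10.96 CPM at 0 h and at 195, 223 and 212 CPM at 24 h in replicates 1 to 3. The 24 h values lay close together and none came near the 0 h values. The rise from 15.2 ± 4.67 to 210 ± 14.04 CPM was 13.8-fold, with a 95% interval of 9.60 to 19.7 (adjusted p = 2.84e-05). At 0 h both genes were highest in replicate 2 and lowest in replicate 3. Mt1 and Mt2 together took 0.00222% ± 0.000915 of counts at 0 h and 0.0528% ± 0.00703 at 24 h, 23.8 times as much. By deposited RPKM, which divides by gene length, Mt2 ranked between 3126 and 7077 among 24147 genes in the 0 h libraries and between 42 and 57 in the 24 h libraries. Mt1 ranked between 1257 and 2884 at 0 h and between 68 and 74 at 24 h.

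The order of the 2 genes turned over between the times. Per library, Mt2 had 0.542, 0.495 and 0.367 counts for each Mt1 count at 0 h, and 1.498, 1.49 and 1.33 at 24 h. Mt1 was the more abundant in every 0 h library and Mt2 in every 24 h library. The log2 ratio went from -1.12 ± 0.29 to 0.52 ± 0.10 (SD, n = 3 each), so Mt2 rose 3.11-fold more than Mt1. An exact two-sided permutation test gave p = 0.1, the smallest that 3 against 3 libraries allow. The ratio does not depend on library scaling, and the 2 genes have nearly equal deposited lengths (556 and 542 bases). The longest run of identical bases shared by their GENCODE transcripts is 20 bases, and the part of reads that could map to both was not measured. GENCODE places the antisense gene Gm45774 opposite Mt2, and without a stated strand setting for the counting, reads of that gene cannot be told apart from those of Mt2.

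**Figure D2:**
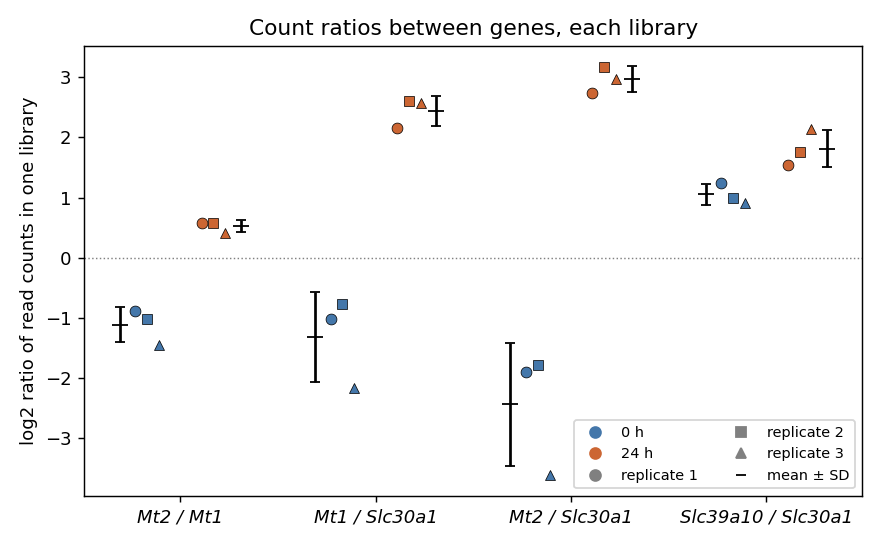
Log2 ratio of read counts between 2 genes in each library (blue 0 h, orange 24 h, marker shape for the replicate), with mean ± SD of 3 libraries beside the points. In all 4 ratios the 24 h points lie above the 0 h points, and only Mt2 to Mt1 and the 2 metallothionein ratios to Slc30a1 cross from below 0 to above it.

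Mt3 (chromosome 8, 94152607 to 94154148), known mainly from brain, was scarce. Its counts were 28, 16 and 6 in 0 h replicates 1 to 3 and 39, 78 and 39 in 24 h replicates 1 to 3, or 2.80, 1.60 and 0.731 CPM against 4.98, 8.27 and 4.12 CPM. The groups did not overlap, but the highest 0 h library exceeded the lowest by more than the fitted fold change. The rise was 3.33-fold (95% interval 1.44 to 7.72, adjusted p = 0.0400), and the call was lost on leaving out 0 h replicate 2 (adjusted p = 0.11), replicate 3 of that time (0.0986), 24 h replicate 1 (0.0642) or replicate 2 of that time (0.131). Retinal RNA was present, and the photoreceptor markers were highest in replicate 2 at 24 h, as was Mt3, but at 0 h Mt3 was highest in replicate 1 and the photoreceptor sum in replicate 2. None of the 6 photoreceptor markers was called, and their median log2 fold change was -0.42. Of 6 Mueller glia and astrocyte markers, Gfap was 2.48-fold higher with the groups apart (adjusted p = 0.0138), 3 were lower and 2 were not called. The part of retinal or glial cells in the Mt3 result was not tested.

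Mt4, the metallothionein of stratified epithelia, had 0 counts in all 6 libraries, which allows at most 0.383 CPM in any of them by counting error. It completes the cluster on chromosome 8, where Mt4, Mt3, Mt2 and Mt1 follow each other. The only other deposited gene whose start lies within 100 kb of the Mt2 start was Nup93, a nuclear pore gene 42.0 kb downstream, named here because it neighbours the cluster. Nup93 rose 1.45-fold (adjusted p = 0.0239), from 49.1 ± 6.32 to 71.2 ± 6.73 CPM.

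**Figure D3:**
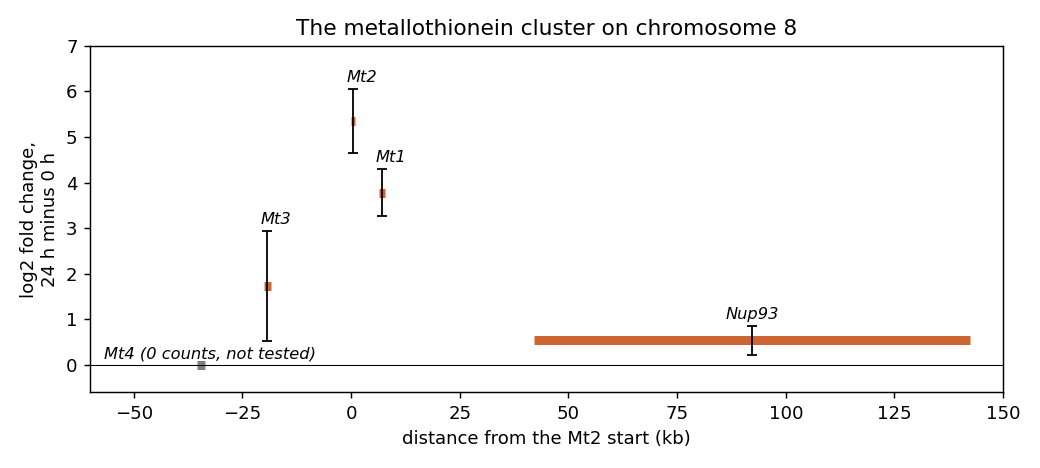
Log2 fold change (24 h minus 0 h, bars for 95% intervals) of the deposited genes whose start lies within 100 kb of the Mt2 start, drawn as segments to scale by distance from that start in kb. Mt2 at 5.36 and Mt1 at 3.78 stand above Mt3 at 1.74 and Nup93 at 0.54, and Mt4 is drawn in grey at 0 because it had no counts and no fold change.

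Mtf1 encodes the zinc-sensing activator itself (chromosome 4, 124802549 to 124849800). It had 26.5, 34.4 and 27.8 CPM at 0 h and 30.5, 34.0 and 27.1 CPM at 24 h. The 2 groups covered the same range. The fold change was 1.03 with a 95% interval of 0.793 to 1.35 (adjusted p = 0.865), so a change of Mtf1 RNA above 1.35-fold lies outside the interval. RNA levels do not report the zinc-dependent activity of the protein, which was not measured.

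Slc30a1 encodes ZnT1, the zinc exporter of the plasma membrane (chromosome 1, 191906781 to 191913247). Its values of 29.1, 34.6 and 49.3 CPM at 0 h enclosed those of 43.7, 36.8 and 35.7 CPM at 24 h. The fold change was 1.03, with a 95% interval of 0.741 to 1.43 (adjusted p = 0.910). Set against Slc30a1 within each library, Mt1 went from 0.222 to 0.584 counts per Slc30a1 count at 0 h to 4.46 to 6.06 at 24 h. Mt2 went from 0.0815 to 0.289 at 0 h to 6.69 to 9.02 at 24 h. These ratios, chosen after the values were seen, rose 13.6-fold and 42.2-fold, each with an exact two-sided permutation p = 0.1, the smallest possible (adjusted p = 0.1 over the 4 ratios computed). Without 0 h replicate 3 the Mt2 ratio rose 28.0-fold. GENCODE places genes on the opposite strand over parts of Slc30a1, Mtf1 and Slc39a8 as well, and further genes on the same strand over parts of Mtf1, Slc39a8 and Slc39a10.

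Of 7 other ZnT genes tested, 1 was called higher, 0 were called lower and 6 were not called. Over all genes tested, 15.2% were higher and 13.0% lower. The gene that rose, Slc30a4, encodes ZnT4, which loads zinc into vesicles. It had 55.0, 63.8 and 67.5 CPM at 0 h and 80.1, 131 and 105 CPM at 24 h, a 1.70-fold rise (adjusted p = 0.0177) whose call was lost on leaving out 0 h replicate 1 (0.0594). The 24 h libraries all lay above the 0 h libraries, with replicate 2 highest. Slc30a3 and Slc30a6 also had 24 h libraries above every 0 h library, at 1.32 ± 0.430 against 3.44 ± 1.25 CPM and 13.0 ± 0.632 against 20.1 ± 4.49 CPM, and were not called (adjusted p = 0.0744 and 0.0560). Slc30a3, with 7 to 17 counts per 0 h library, passed the filter only through its 24 h libraries. In Slc30a9 all 24 h libraries lay below the 0 h libraries, at 117 ± 7.52 against 94.3 ± 13.4 CPM, and it was not called (adjusted p = 0.159). Over all genes tested, 22.9% had every 24 h library above the 0 h libraries and 21.8% had every one below. Slc30a5 and Slc30a7, of the secretory pathway, overlapped between the times, at 47.8 and 81.7 CPM at 0 h and 51.1 and 83.8 CPM at 24 h. Slc30a10, a manganese exporter, had 7 to 21 counts at 0 h and 2 to 12 at 24 h and was not called. Slc30a2 and Slc30a8 had at most 8 counts in a library and did not pass the low-count filter.

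Slc39a14 is the importer gene of the 8 with the largest called change. It encodes ZIP14, which also carries iron and manganese and is induced by IL-6 in liver (chromosome 14, 70303467 to 70351424). It had 27.7, 21.2 and 29.97 CPM at 0 h and 59.8, 90.0 and 86.0 CPM at 24 h. Even the lowest 24 h library, replicate 1, was above all 0 h libraries. The rise from 26.3 ± 4.55 to 78.6 ± 16.4 CPM was 2.99-fold (95% interval 2.18 to 4.12, adjusted p = 0.000847).

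Slc39a10 encodes ZIP10, a plasma membrane importer whose gene is known to be repressed by MTF1 when zinc is plentiful (chromosome 1, 46807544 to 46853509). It was the most abundant transporter gene of the 8 per length, with 69.1, 69.1 and 92.7 CPM at 0 h and 127, 125 and 157 CPM at 24 h. The groups were apart, and replicate 3 was highest at both times. It rose 1.77-fold (95% interval 1.36 to 2.31, adjusted p = 0.00749), and against a 1.5-fold change it was not called (adjusted p = 0.165). Its count ratio to Slc30a1, also chosen after the values were seen, was 1.88 to 2.37 at 0 h and 2.91 to 4.402 at 24 h. This was a 1.70-fold rise (exact two-sided permutation p = 0.1, the smallest possible).

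Slc39a8 encodes ZIP8, a carrier of zinc and manganese that is known to be induced by NF-kB (chromosome 3, 135825279 to 135888572). It was the scarcest of the 8, with 4, 11 and 27 counts in 0 h replicates 1 to 3 and 54, 42 and 38 counts in 24 h replicates 1 to 3, or 0.4002, 1.10 and 3.29 CPM against 6.90, 4.45 and 4.01 CPM. All 24 h values exceeded all 0 h values, though 0 h replicate 3 lay close to them. The 3.24-fold difference (95% interval 1.13 to 9.31) was not called (adjusted p = 0.0918), and was called without 0 h replicate 3 (log2 fold change 2.77, adjusted p = 0.0227). It was also called with DESeq2 (adjusted p = 0.0442) and with limma-voom (adjusted p = 0.0416). The 10 macrophage markers summed to 70.1, 133 and 160 CPM in 0 h replicates 1 to 3, the same order as Slc39a8. At 24 h they summed to 97.4, 73.6 and 154 CPM, with 1 marker higher, 3 lower and none at 0. The part of macrophages in the Slc39a8 values was not tested.

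Outside the 8 genes, 3 more ZIP genes rose and 1 fell. In all, of 20 other zinc transporter genes 16 passed the low-count filter, 4 rose (Slc30a4 included), 1 fell and 11 were not called, beside 15.2% higher and 13.0% lower over all genes tested, and their median log2 fold change was 0.09. Slc39a1 encodes ZIP1, a widely made importer, and was the most abundant of all zinc transporter genes per length. It had 152, 135 and 168 CPM at 0 h and 301, 281 and 387 CPM at 24 h, a 2.13-fold rise (adjusted p = 0.00232) with the groups well apart. Slc39a6 encodes ZIP6, the partner with which ZIP10 forms a complex, and rose 1.86-fold from 55.2 ± 6.91 to 103 ± 14.7 CPM (adjusted p = 0.00380). Slc39a7 encodes ZIP7, which releases zinc from the endoplasmic reticulum, and rose 1.65-fold from 84.6 ± 6.87 to 140 ± 8.67 CPM (adjusted p = 0.00415). Against a 1.5-fold change Slc39a1 was called higher and Slc30a4, Slc39a6 and Slc39a7 were not (adjusted p = 0.301, 0.0799 and 0.258). Slc39a2, Slc39a3, Slc39a9, Slc39a11 and Slc39a13 were not called, and Slc39a4 and Slc39a5 did not pass the filter.

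Slc39a12, which encodes the importer ZIP12, went the other way. It had 47.2, 30.1 and 63.1 CPM at 0 h and 10.9, 2.12 and 7.28 CPM at 24 h. The groups did not overlap, and 24 h replicate 2 was lowest. It fell 6.98-fold, a log2 fold change of -2.80 ± 0.50 (SE, adjusted p = 0.00399). The pigment epithelium markers Rgr, Lrat and Rpe65 were lower at 24 h, while of the list's 4 melanosome genes Pmel and Mlana were called higher (9.77-fold and 5.16-fold, with overlapping libraries) and Tyr and Tyrp1 were not called. The list of 7 summed to 131, 268 and 162 CPM in 0 h replicates 1 to 3 and to 677, 53.3 and 498 CPM in 24 h replicates 1 to 3. At 24 h the sum and Slc39a12 were both lowest in replicate 2. At 0 h, however, the sum was highest in replicate 2, where Slc39a12 was lowest. Of 6 Mueller glia and astrocyte markers, Slc1a3, Aqp4 and Apoe fell as well (2.75-fold, 2.76-fold and 1.86-fold), and Gfap rose. The part of cells other than lens epithelium in the fall of Slc39a12 was not tested.

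**Figure D4:**
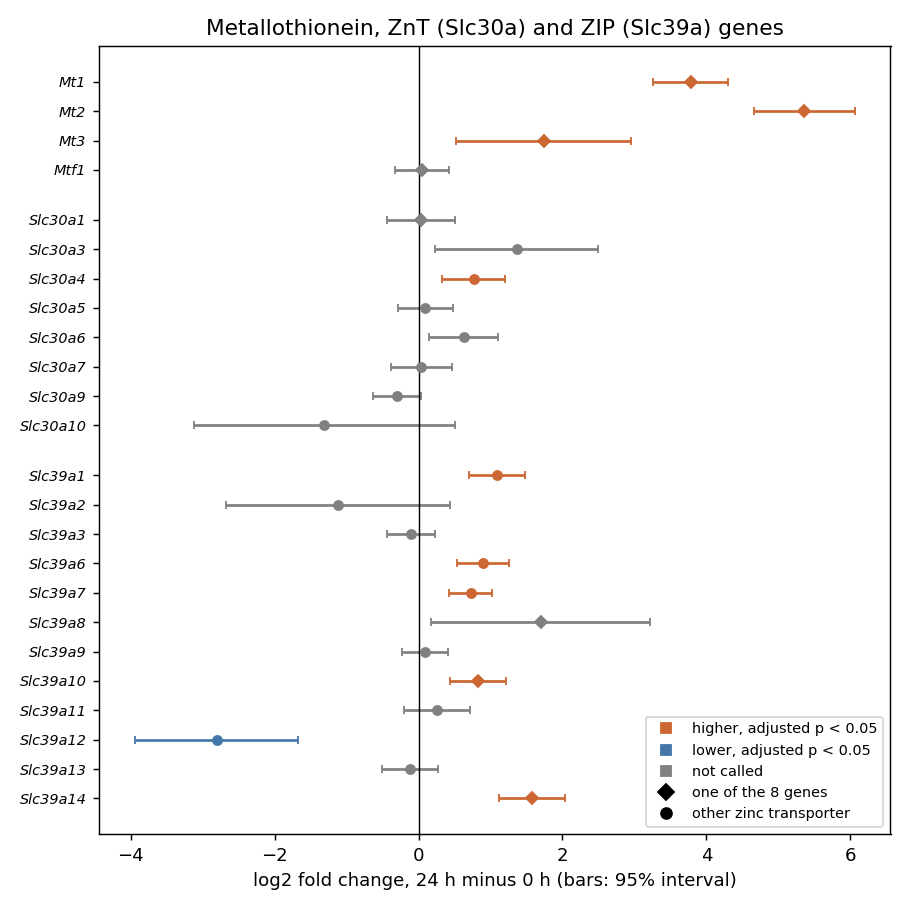
Log2 fold change (24 h minus 0 h) with 95% intervals for the tested metallothionein, Mtf1, ZnT and ZIP genes (diamonds the 8 genes, circles the other transporters, orange higher and blue lower at an adjusted p under 0.05, grey not called). Mt2 and Mt1 lie farthest to the right at 5.36 and 3.78, Slc39a12 lies farthest to the left at -2.80, and Mtf1 and Slc30a1 sit at 0.05 and 0.04.

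Levels of different genes were compared by deposited RPKM, which corrects for length and has no TMM scaling. At 0 h the order was Mt1 (27.7 ± 10.7), Slc39a10 (15.1 ± 2.38), Mt2 (12.9 ± 6.17), Slc30a1 (7.01 ± 1.87), Slc39a14 (4.88 ± 0.539), Mtf1 (3.80 ± 0.866), Mt3 (3.08 ± 1.76) and Slc39a8 (0.394 ± 0.357 RPKM, SD, n = 3). Only Mt1 stood clear of the gene below it, and Slc39a8 of the gene above it, while the libraries of all other neighbours in that order overlapped. At 24 h the order was Mt2 (560.3 ± 80.5), Mt1 (399.7 ± 50.5), Slc39a10 (28.3 ± 3.83), Slc39a14 (15.7 ± 4.04), Mt3 (11.2 ± 4.89), Slc30a1 (7.60 ± 0.565), Mtf1 (4.13 ± 0.658) and Slc39a8 (1.33 ± 0.339 RPKM). At that time the libraries of Slc39a14, Mt3 and Slc30a1 overlapped between neighbours, and those of the other neighbours did not. Slc30a1 thus went from the fourth place to the sixth with nearly the same level.

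Genes that share regulation or chemistry with metallothioneins were counted from lists written with earlier results known, to be read beside the 15.2% of all tested genes that rose and the 13.0% that fell. Of 8 genes linked to MTF1, 3 rose (Mt1, Mt2 and Slc39a10), 2 fell (Gclc and Ndrg1) and 3 were not called (Slc30a1, Csrp1 and Sepw1), with a median log2 fold change of 0.07. Those that rose, and Slc30a1, are among the genes described above, so the list only repeats their results. On leaving out replicate 1 or 3 of 0 h, or 1 or 2 of 24 h, 1 MTF1-linked gene fell. Of 8 genes of the IL-6 and STAT3 response, 7 rose and 0 fell (median 3.46). The lowest p belonged to the feedback inhibitor Socs3, which rose from 10.3 ± 2.40 to 192 ± 7.76 CPM, 18.5-fold (adjusted p = 1.13e-05). The cytokine genes Il6, with 0 counts at 0 h, and Osm, with 1 count in all 0 h libraries together, passed the filter only through their 24 h libraries. So did the receptor gene Il6ra, with 11 or 12 counts in each 0 h library. Il6 was at least 13.7-fold higher, against a floor of 3 counts per library, and with Il6 at that bound the list's median was 3.25. Of 10 glucocorticoid-induced genes, 2 rose, 2 fell and 6 were not called (median 0.00). Nfkbia, which NF-kB also induces, rose 7.25-fold and Errfi1 rose 4.07-fold. Tsc22d3 and Zbtb16 were the 2 that fell, though only 1 fell on leaving out 24 h replicate 1. A response to glucocorticoids was not tested. Of 8 zinc-dependent and thiol enzymes and partners, 4 rose and 2 fell (median 0.69). Gsr, glutathione reductase, rose 4.53-fold, while Gclc and Gss, which make glutathione, were the 2 that fell. On leaving out replicate 1 or 3 of 0 h, or 1 or 2 of 24 h, 1 of the list fell. Of 12 other metal transport and storage genes, 4 rose and 1 fell (median -0.07). The ferritin genes Fth1 and Ftl1 and the metal carriers Slc11a1 and Slc11a2 rose, and Atp7b, a copper-exporting ATPase, fell 4.65-fold (adjusted p = 0.00362).

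The genes whose level followed Mt2 most closely across the 6 libraries, by Pearson correlation of log2 CPM among 9691 genes, were Tbc1d1 (r = 0.9994), Sfxn3, Iffo2, Vcam1 and Adra1b (r = 0.998). For Mt1 they were Actn1 (r = 0.9982), Map1b, Plk2, Tfe3 and Iffo2 (r = 0.9976), and for Slc39a14 they were Hmgb2 (r = 0.9989), Litaf, Plp2, Exosc1 and Tmod3 (r = 0.9964). Each correlation rests on 6 libraries in 2 groups that share their time, depth and cell mixture. The change between the times varied, from 1.47-fold in Exosc1 to 23.6-fold in Vcam1, an adhesion molecule.

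Neutrophil markers were also higher at 24 h, whereas of 10 macrophage markers 1 rose and 3 fell. Of 12 neutrophil markers 11 were matched, and they summed to 5.20, 10.1 and 9.38 CPM in 0 h replicates 1 to 3 and 72.9, 104 and 124 CPM in 24 h replicates 1 to 3. Of these 11 only 5 passed the low-count filter, and 3 of the 5 (Retnlg, S100a8 and S100a9) did so only through their 24 h libraries, with 0 to 2 counts at 0 h. Csf3r and Cxcr2, with 14 counts or more in each 0 h library, rose 19.0-fold and 4.37-fold. Elane had 0 counts in all libraries. At 0 h the neutrophil sum, Mt1 and Mt2 were all highest in replicate 2. At 24 h the neutrophil sum was highest in replicate 3, and Mt1 and Mt2 in replicate 2. The part of neutrophils in the rise of Mt1 and Mt2 was not tested.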

How the data were processed

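RNA of 6 libraries was sequenced on an Illumina instrument, per the labels. Each deposited table gives whole-number counts for every gene beside its symbol, position and length, per the file headers. RPKM values, deposited by the authors in the same tables, equal the counts divided by that length and by the library's summed counts, and were used only to compare levels between genes. The submitters' processing notes name Trim Galore 0.4.4, TopHat2 2.1.0, HTSeq 0.6.1p1, edgeR 3.16.5 and mm10, while neither annotation nor strand setting is given in the sources used here. Genes were filtered with filterByExpr (13956 of 24147 remained), scaled by TMM and compared with edgeR 4.0.16 (R 4.3.3) by its two-sided quasi-likelihood test without covariates. Adjusted p-values are Benjamini-Hochberg values over all genes tested, and genes under 0.05 were called. Standard errors and 95% intervals were derived from its F values, and are approximate. The p-values of this test set the difference between the times against the spread between libraries. The limit from a count of 0 (3 counts) covers counting error only, and treats PCR copies as independent. On simulated counts for 13956 genes with 200 changed, the test recovered 52.9%, 84.7% and 100% of changes of 1, 2 and 3 on the log2 scale. It made 6 false calls there. The simulation gave each gene the spread usual for its level, and in the data 28.2% of genes were called. These rates therefore need not hold for the data.

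The 8 genes, the lists, tests and alternatives were chosen with earlier results of these data known. Named are the 8 genes, every other metallothionein or zinc transporter gene called, the member with the lowest p in each list and the 5 genes (mean at least 10 CPM, log2 with a pseudocount of 2) most like Mt1, Mt2 and Slc39a14, and other genes were named after their values were seen. The lists were MTF1-linked genes, other metal transport and storage, glucocorticoid-induced genes, IL-6 and STAT3 response, zinc-dependent and thiol partners, and cell type markers. Sepw1 stands for Selenow and Emr1 for Adgre1. Alternatives were other scaling, no filter, DESeq2 1.42.0, limma-voom (limma 3.58.1), a test against a 1.5-fold change, the replicate number as a block, and leaving out each library. Promoters came from the RefSeq table of GRCm38.p6, which held 7 of the 8 genes and lacked Slc39a14. Strands and overlaps came from GENCODE M21.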

Additional observations from a re-analysis of the deposited data

How the results depend on the processing

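Mt1, Mt2, Slc39a14 and Slc39a12 kept their direction and call under all 13 alternatives, and Mt2 ranged from 5.10 to 5.65 and Mt1 from 3.62 to 4.04 on the log2 scale. Against a 1.5-fold change, which asks for more than a nonzero change, the calls over all genes went from 2125 higher and 1817 lower to 1060 and 629, those of the 8 genes to 3 and those of other zinc transporters to 1 higher. There the lists gave 0 lower MTF1-linked genes, 1 higher metal transport gene, 1 lower glucocorticoid-induced gene and 0 lower thiol partners, and Mt3 (log2 fold change 1.74) and Slc39a10 (0.83) were not called. Slc39a8 was called with DESeq2 (1.70) and limma-voom (2.11). With 1 library left out, lower calls over all genes ranged from 1040 (without 0 h replicate 3) to 1649, lower MTF1-linked genes from 1 to 2, lower glucocorticoid-induced genes from 1 to 3 and lower thiol partners from 1 to 2. Log2 fold changes then ranged from 1.39 to 2.31 for Mt3, from -0.035 (without 24 h replicate 2) to 0.17 for Mtf1, from -0.083 (without 0 h replicate 1) to 0.30 for Slc30a1, and from 1.26 to 2.77 for Slc39a8. For Slc30a1 it was also -0.021 without 0 h replicate 2 and -0.016 without 24 h replicate 1, for Slc30a5 it ranged from -0.016 to 0.28, and for Slc30a7 from -0.11 to 0.21, with -0.026 without 0 h replicate 1 and -0.0013 without 0 h replicate 2. The cause of these shifts was not tested. Libraries of the same number correlated at 0.0866, 0.215 and 0.397 in their deviations from the group means. For 24 h replicates 2 and 3 the same number correlated best, while 24 h replicate 1 correlated best with 0 h replicate 2 (0.172). The main fit did not take the numbers as pairs, and whether they are pairs was not settled. With the replicate block 2315 genes were higher and 2175 lower, 5 of the 8 genes were called, Mt3 stood at 1.82 (adjusted p = 0.0205), and the block changed no call among the 8 genes or the other zinc transporters. The ratios to Slc30a1, left out this way only after the data had been seen, rose 28.0-fold to 52.8-fold for Mt2 and 10.1-fold to 16.4-fold for Mt1. Mt3 and Slc39a8 rest on 4 to 78 counts per library, and how far depth sets their spread was not tested.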
